A study of Mus musculus with 8 samples.

Results

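Gene expression in the ischemic hemisphere of mice given PACAP38 was examined at 24 h of a permanent occlusion of the middle cerebral artery (PMCAO) and set against sham-operated mice given the same peptide. The data were the PACAP38 channels of 4 of the 8 arrays of the series, all 4 from one slide of 24 h. They were chosen by time point and by the dye that carried the PACAP38 RNA, which was Cy5 on the arrays numbered Pooled 1 and Cy3 on those numbered Pooled 2. The other channel of each array held RNA of saline-treated mice of the same surgery. All animals were male C57BL/6J mice, 8 to 12 weeks old by the labels.

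In the PMCAO group a filament was left in the right middle cerebral artery, and in the sham group the operation was done without the occlusion. Both groups then received 1 µl with 1 pmol of PACAP38 into a cerebral ventricle straight after surgery. PMCAO mice kept for the arrays had neurological grades of 1 or 2. RNA came from the hemisphere on the operated side, taken without olfactory bulb and cerebellum according to the study's methods. RNA of 3 mice was pooled per group and the same pool was labeled with each dye. A group was thus 1 pool measured on 2 arrays, the arrays of a group were technical replicates, and no test of PMCAO against sham with PACAP38 alone was possible.

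PACAP38 is a neuropeptide of the secretin and VIP family. It binds the receptor PAC1 (*Adcyap1r1*) and the shared receptors VPAC1 and VPAC2 (*Vipr1* and *Vipr2*), which couple mainly to adenylate cyclase and raise cyclic AMP. After arterial occlusion, brain tissue is known to pass through a wave of immediate early and stress genes, then chemokines that draw in neutrophils and monocytes, then reactive gliosis. In hemisphere RNA, fewer cells of a type and less RNA per cell cannot be told apart.

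The 4 PACAP38 channels were of similar quality. Median raw signals were 260 and 270 in Cy5 (sham and PMCAO) and 134 and 146 in Cy3, over local backgrounds of 70 to 72 and of 40. Between 65% and 69.1% of spots were well above background. Levels below are log2 normalized intensities, and a difference is PMCAO minus sham within a dye, averaged over the Cy5 and the Cy3 pair. A difference of 1 is thus 2-fold. Each gene is represented by its brightest probe, and Cy5 values are given before Cy3 values.

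Of 27007 probes counted, 215 (0.796%) were higher in PMCAO by 2-fold or more with both dyes in one direction and 38 (0.141%) were lower. These counts moved with the background correction, to 357 and 72 with a normexp offset of 1 and to 484 and 163 with the scanner software's processed signals. At 2-fold in each dye they were 125 and 20, and the Cy5 pair alone gave 80 lower. By gene, 160 of 15124 counted genes (1.06%) were called higher and 30 (0.198%) lower. Among the higher genes, 124 were between 2-fold and 4-fold, 29 between 4-fold and 8-fold and 7 at 8-fold or more. Of the lower genes, 27 were under 4-fold and 3 were between 4-fold and 8-fold. The median difference over counted genes was -0.02.

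The dye pairs differed by a median of 0.105 on the log2 scale, and 95% of counted probes had a gap under 0.393. In 31 of the 190 called genes the gap exceeded 1, and in all 31 the saline channel of the pair of arrays with the larger PACAP38 difference went the same way by 2-fold or more. *Aldh1l1*, an astrocyte enzyme of folate metabolism, differed by 7.20 in Cy5 and by 0.52 in Cy3. *Acadvl*, a mitochondrial fatty acid dehydrogenase, differed by 0.002 in Cy5 and by 6.22 in Cy3. *Tmco3*, called lower, gave -3.13 and -0.23. The values of these 3 genes were set by 1 pair of arrays. The same probes carried into both treatments: over counted probes the PACAP38 Cy5 pair correlated with the PACAP38 Cy3 pair at r = 0.562, and with the saline channels of its own arrays at r = 0.812 (across probes, which are not independent replicates).

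**Figure D1:**
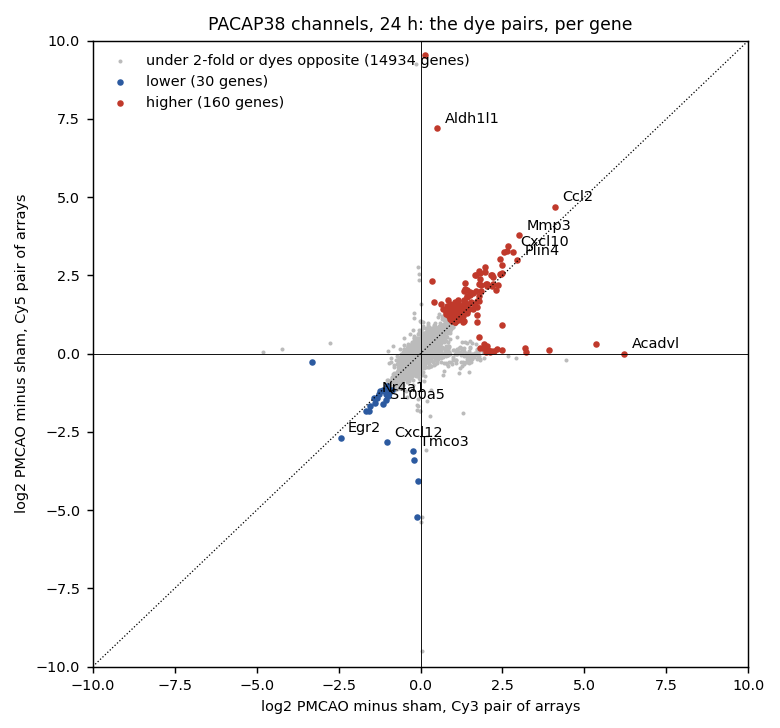
Log2 difference PMCAO minus sham in the Cy3 pair (horizontal axis) against the Cy5 pair (vertical axis) for each counted gene, with called genes in red (160 higher) and blue (30 lower) and the dotted line at equal differences. *Ccl2*, *Mmp3* and *Egr2* lie near the line, whereas *Aldh1l1* and *Acadvl* lie along an axis, with a difference in 1 dye pair only.

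As the one test the design allowed, limma was fitted to the differences of both treatments and both times, and the mean of the PACAP38 and saline differences at 24 h was tested against 0. It tests the occlusion over both pools and not PACAP38 alone, and its replicates shared arrays. Of 27759 probes, 958 (3.45%) were higher and 680 (2.45%) lower at an adjusted p under 0.05 (Benjamini-Hochberg). By gene, 617 of 15406 (4.0%) were higher and 427 (2.77%) lower. It called 154 of the 160 genes higher with PACAP38 and 23 of the 30 lower genes in the same direction. The PACAP38 differences that chose these genes are part of the tested mean, so this overlap was in part fixed in advance. *Aldh1l1*, *Acadvl* and *Tmco3*, whose values 1 pair of arrays set, were called too (limma adjusted p of 0.0031, 0.0046 and 0.00545). Without the saline pair of 24 h the fit called 407 probes higher and 122 lower, with a single difference at 24 h assumed to vary like those of 6 h, from which the spread then came. With median scaling in place of quantile normalization it called 2123 and 3438, a split that turned toward lower probes.

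Most of the CC chemokine genes counted were higher in PMCAO. Chemokines are small secreted proteins that attract leukocytes, CC members mostly monocytes and lymphocytes, CXC members with the ELR motif mostly neutrophils. Of 14 CC chemokine genes on the array, 11 were counted and 9 of those were called higher and none lower. The median difference of all 14 was 1.25, against -0.01 over all genes on the array. limma called 9 of the 11 higher and 1 lower.

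*Ccl2*, the main monocyte chemoattractant, was at 8.05 and 6.80 in sham and at 12.75 and 10.89 in PMCAO. Its difference of 4.39 (4.70 and 4.09 in the dyes) was the largest of any gene whose dyes lay within 2-fold of each other, with a limma adjusted p of 0.00246 for the mean over both treatments. *Ccl4* and *Ccl3*, which attract monocytes and lymphocytes, were higher by 2.73 and 2.38, *Ccl12* and *Ccl7*, further ligands of CCR2, by 2.34 and 2.09. PMCAO lay above sham in each dye for all 5 genes. *Ccl17*, *Ccl9*, *Ccl5* and *Ccl6* were higher by 1.61, 1.41, 1.09 and 1.00. *Ccl8* was the member limma called lower, at -0.60.

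Among 13 CXC chemokine genes, 9 were counted, 2 were called higher and 1 lower. The median of the 13 was 0.14, and that of the 9 counted was -0.14. *Cxcl10*, an interferon-inducible ligand of CXCR3, was at 7.80 and 6.59 in sham and 11.06 and 9.42 in PMCAO, a difference of 3.04 (limma adjusted p = 0.00545). *Cxcl1*, a neutrophil attractant, was not well above background on either sham array and was at least 3.27-fold higher in PMCAO. *Cxcl12*, a constitutive ligand of CXCR4, was lower by 1.92, but the dyes gave -2.82 and -1.01 and a dimmer probe of the gene gave -0.52. *Cxcl3* differed by 0.51 and was not called.

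The levels of *Ccl2*, *Cxcl10* and other genes on each channel are plotted below, and in every panel the lines of both dyes run the same way.

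**Figure D2:**
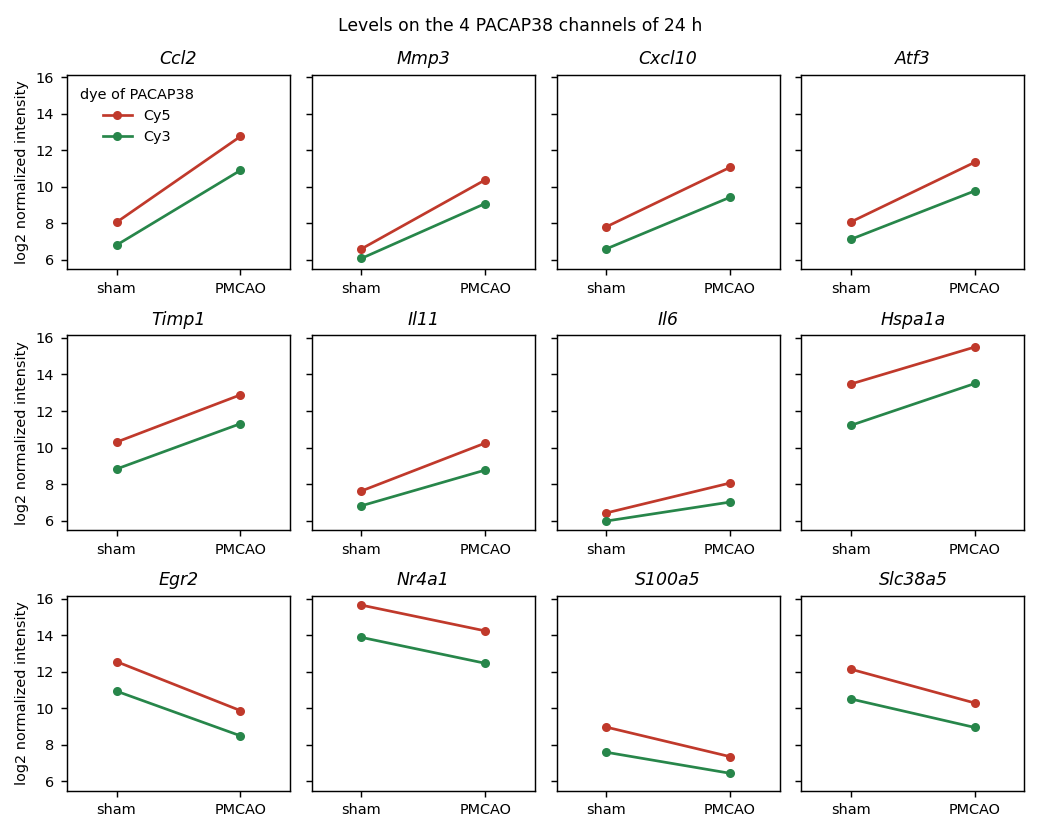
Log2 normalized intensity (vertical axis) on the sham and PMCAO arrays for 12 genes, with PACAP38 RNA in Cy5 (red) and in Cy3 (green) and a line joining the arrays of a dye. Cy5 values lie above Cy3 values throughout, and PMCAO lies above sham for the first 8 genes and below it for *Egr2*, *Nr4a1*, *S100a5* and *Slc38a5* in both dyes.

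Cytokine genes were higher in part. Of 15 interleukin and related genes on the array, 11 were counted, 4 were called higher and none lower, and limma called 4 higher. *Il11*, an IL-6 family cytokine, was at 7.62 and 6.81 in sham and 10.25 and 8.77 in PMCAO, a difference of 2.29. *Il6* was not well above background in sham (6.42 and 5.98) and reached 8.06 and 7.02 in PMCAO, at least 2.38-fold higher. *Il1rn*, the decoy ligand of the IL-1 receptor, was likewise bounded at 2.25-fold or more. *Il1b* was at 7.27 and 6.45 in sham and 8.52 and 7.35 in PMCAO, a difference of 1.08 that limma did not call (adjusted p = 0.0529). *Il22*, which the study also followed, differed by 0.21.

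Receptors and signalling genes of the IL-6 family were higher in part. Of the 10 on this list 3 were called higher, with a list median of 0.23, and limma called 4. *Socs3*, a feedback inhibitor of STAT3 signalling, was higher by 2.12 (limma adjusted p = 0.00726). *Osmr*, the oncostatin M receptor, was higher by 1.59 and *Bcl3*, an atypical IκB protein, by 1.52. A dimmer probe of *Osmr* gave 0.63 and was not called. *Stat3* itself differed by 0.49.

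Neutrophil genes were higher in part. Of 16 neutrophil markers 11 were counted, 4 were called higher and none lower, with a median of 0.32 over the 16, and limma called 4. *S100a9* and *S100a8* encode the subunits of calprotectin. *S100a9* was at 10.98 and 9.58 in sham and at 13.50 and 11.77 in PMCAO, a difference of 2.35 (limma adjusted p = 0.0405), and *S100a8* differed by 1.84. *Retnlg*, a resistin-like peptide of granulocytes, differed by 1.34 and was not called by limma (adjusted p = 0.06), and *Lrg1* differed by 1.07. The granule genes *Camp*, *Ltf*, *Elane* and *Ngp* were not counted, as none was well above background on both arrays of a group.

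Microglia and macrophage markers split in direction. All 20 were counted, 4 were called higher and 3 lower, and the list median was -0.30. limma called 7 higher and 5 lower. The higher genes mark activated or infiltrating phagocytes. *Msr1*, a scavenger receptor, was at least 3.28-fold higher by its brightest probe, and its further probes gave 1.66 and 0.99, the last not called. *Cd14*, the lipopolysaccharide co-receptor, was higher by 1.60, *Spp1* (osteopontin) by 1.32 and *Arg1* (arginase) at least 2.03-fold. The lower genes mark resting microglia. *P2ry12*, the ADP receptor of resting microglia, went from 10.12 and 8.70 in sham to 8.97 and 7.55 in PMCAO, a difference of -1.15 (limma adjusted p = 0.0152). *Siglech*, a microglial lectin, differed by -1.17 and *Gpr34* by -1.06. Each of the 3 was lower in both dyes. *Tmem119* at -0.71 and *Cx3cr1* at -0.28 were not called by either rule. The summed level of the 20 markers was 16.72 and 15.05 in sham and 16.76 and 15.06 in PMCAO.

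Reactive astrocyte genes were the list with the most members called. Of 22 genes, 21 were counted, 13 were called higher and none lower, all 22 lay above 0 and their median was 1.10. limma called 16 higher. *Tgm1*, a transglutaminase, was at least 7.23-fold higher, as it was not well above background in sham, and *Slc10a6*, a transporter of sulfated steroids, at least 3.91-fold. *Ptx3*, a pentraxin of innate immunity, was higher by 2.90, though well above background on only 1 sham array, and a further probe gave 2.35. *Serpina3n*, a protease inhibitor, was at 9.46 and 8.21 in sham and 11.69 and 10.41 in PMCAO, a difference of 2.21. *Lcn2* (lipocalin 2) was higher by 2.10, *Cd44* by 1.23 and *Gfap*, the astrocyte intermediate filament, by 1.04, with *Gfap* at 12.51 and 10.83 in sham and 13.52 and 11.89 in PMCAO. *Vim* was at 0.73. In contrast, 10 markers of resting astrocytes had a median of 0.04, with *Fgfr3* at 0.47 and *Gja1*, the gap junction connexin, at -0.37. Their 1 call was *Aldh1l1*, described above as resting on 1 pair of arrays.

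Matrix proteases and their inhibitors included 5 called genes of 15 counted, all higher, and 6 by limma, with a median of 0.40 over the 19 on the array. *Mmp3* (stromelysin 1), which cleaves matrix and tight junction proteins, was not well above background in sham (6.59 and 6.07) and was at 10.37 and 9.08 in PMCAO, at least 10.2-fold higher. *Timp1*, an inhibitor of matrix metalloproteases, was at 10.30 and 8.83 in sham and 12.88 and 11.31 in PMCAO, a difference of 2.53, and its dimmer probes gave 2.33 and 1.70. *Plaur*, the urokinase receptor, was higher by 2.02 and *Adamts1* by 1.19. *Mmp9* differed by 0.26.

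A few stress genes were higher. Of 13 heat shock and chaperone genes, 2 were called higher, with a median of 0.35, and limma called 4. *Hspa1a*, the inducible HSP70, was at 13.48 and 11.22 in sham and 15.50 and 13.51 in PMCAO, a difference of 2.16, and its 3 other probes gave 1.77 to 2.39. Its sequence is close to that of its neighbor *Hspa1b*, so its probes may read both. *Hspb1* (HSP27) was higher by 1.93 and *Bag3*, an HSP70 co-chaperone, by 0.63, while *Cryab* was at -0.52. In the integrated stress response list, 3 of 13 were called higher, with a median of 0.28 and 5 called by limma. *Gdf15*, a stress cytokine, was higher by 1.66 and *Ddit4* by 1.02. *Fgf21*, an endocrine growth factor named in the study, was not well above background in sham. Its brightest probe was at least 2.13-fold higher, with a limma adjusted p of 0.0637. A further probe of similar brightness gave 0.69 and was not called.

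Of 15 oxidative stress genes 2 were called higher, with a median of 0.14 and 4 calls by limma. *Hmox1* (heme oxygenase 1) was at 10.20 and 8.53 in sham and 12.38 and 10.90 in PMCAO, a difference of 2.28, and *Mt1* (metallothionein 1) was higher by 1.01. Hypoxia-inducible genes were not called in any of 15 members, with a median of -0.02 and 2 called higher by limma. *Adm* (adrenomedullin) was at 0.78 and *Slc2a1*, the glucose transporter of the blood-brain barrier, at 0.50.

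Of 24 counted interferon-stimulated genes 2 were called higher, *Gbp2* by 1.24 and *Rsad2* by 1.10, the median of the 25 on the array was 0.44 and 23 lay above 0. *Rsad2* was at 1.58 in Cy5 and 0.62 in Cy3, and its 2 other probes gave 0.475 and 0.126. limma called 11 higher. No complement gene of 13 counted was called, with a median of 0.26 over 14 and 5 limma calls, led by *C4b* at 0.55. In the list of Bcl2 family, caspase and p53 target genes, with a median of 0.12, 2 of 18 were called higher: *Cdkn1a*, the cell cycle inhibitor p21, by 2.10 and *Pmaip1* (Noxa) by 1.48. *Bcl2* was at -0.59, and limma called 3 members higher and 1 lower. Of 16 endothelial genes *Icam1*, a leukocyte adhesion molecule, was higher by 1.06 and *Angpt2*, which loosens endothelial contacts, by 1.23. A dimmer probe of *Icam1* gave 0.57 and was not called. The endothelial list had a median of 0.06 over 17, with 3 limma calls higher and 2 lower.

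Several genes with large differences belonged to no list. *Plin4*, a lipid droplet protein, was at 11.11 and 9.61 in sham and 14.09 and 12.57 in PMCAO, a difference of 2.97 with 2.98 and 2.96 in the dyes. *Chil3*, a chitinase-like protein of macrophages, was higher by 2.65, *Tubb6*, a class of β-tubulin, by 2.50, *Maff*, a small Maf factor, by 2.48 and *Cd300lf*, a myeloid receptor, by 2.33. A dimmer probe of *Tubb6* gave 0.02. With sham not well above background, *Cd244a* was at least 3.21-fold, *Clec4d* at least 2.67-fold and *Serpina3m* at least 2.40-fold.

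Immediate early genes stood out among the lower genes. These transcription factors and effectors are induced within minutes by neuronal activity or injury and decay again. Of 20 on the array, 19 were counted, 4 were called lower and 1 higher, and 16 of the 20 lay at or below 0, with a median of -0.39. limma, which averages with saline, called 3 higher and 3 lower.

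*Egr2* had the lowest difference of any gene whose dyes lay within 2-fold of each other. It was at 12.56 and 10.95 in sham and at 9.88 and 8.50 in PMCAO, a difference of -2.56 (0.169-fold). *Egr1* was at 15.53 and 13.62 in sham and 13.86 and 12.07 in PMCAO, a difference of -1.61. *Nr4a1*, an orphan nuclear receptor, differed by -1.41 and -1.42 in the dyes, and *Egr4* by -1.19 and -1.23. All 4 were lower in PMCAO in both dyes, and limma did not call them for the mean over both treatments (adjusted p of 0.0663, 0.0855, 0.204 and 0.0588), where the saline differences were -0.74, -0.53, -0.10 and -0.55. *Egr3* at -0.92, *Arc* at -0.87 and *Nr4a2* at -0.75 were called lower by limma. *Fos*, chosen for naming after its values were seen, was at 10.96 and 9.16 in sham and 10.16 and 8.47 in PMCAO, a difference of -0.75.

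*Atf3*, a stress-induced factor of the same leucine zipper class, went the other way. It was at 8.07 and 7.12 in sham and 11.34 and 9.77 in PMCAO, a difference of 2.96 (limma adjusted p = 0.00545). *Fosl1* was at 0.99, just short of 2-fold.

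**Figure D3:**
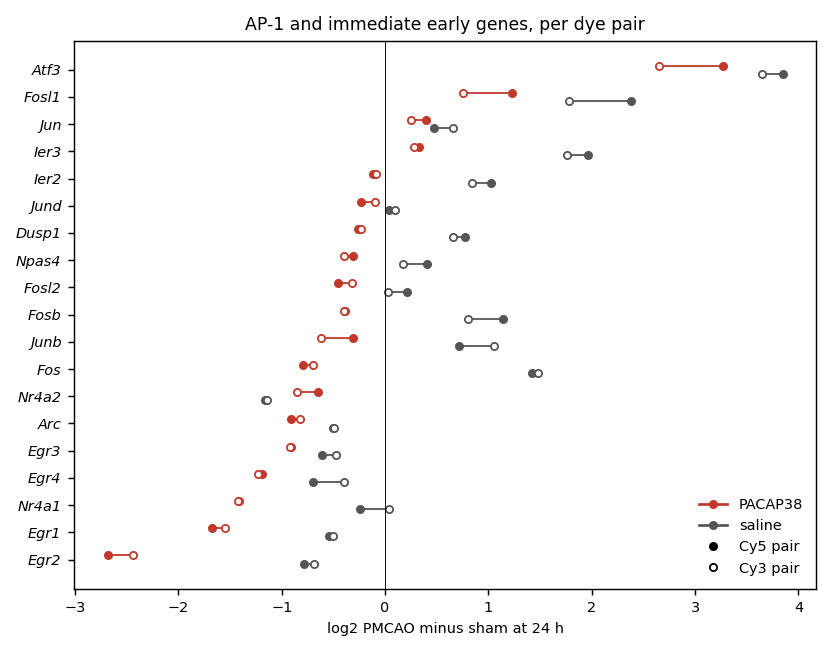
Log2 difference PMCAO minus sham at 24 h (horizontal axis) for the 19 counted AP-1 and immediate early genes, with PACAP38 in red, saline in gray, filled points for the Cy5 pair and open points for the Cy3 pair. The PACAP38 points lie to the left of the saline points in both dyes for 18 of the 19 genes, and *Nr4a2* is the exception.

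The remaining lower genes were of mixed function. *Slc38a5*, a glutamine transporter, was at 12.14 and 10.52 in sham and 10.30 and 8.96 in PMCAO, a difference of -1.70 (limma adjusted p = 0.00545). *Slc2a5*, a fructose transporter of microglia, differed by -1.49, and *Ugt8a*, which makes the galactolipids of myelin, by -1.38 with a dimmer probe at -0.95. *Bfsp2* was at -1.18, *Tmprss5* at -1.27, and the unnamed transcripts C330006P03Rik and 4933409K07Rik at -1.76 and -1.28. The myelin list had no other call among 17 genes, a median of -0.19 and 2 lower calls by limma, with *Sox10* at -0.43 and *Mag* at -0.35. *S100a5*, a calcium-binding protein of olfactory neurons named in the study, was at 8.98 and 7.60 in sham and 7.36 and 6.45 in PMCAO, a difference of -1.38.

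The striatal, cortical, interneuron, receptor and channel lists held no gene called at 2-fold. Markers of striatal medium spiny neurons, which lie in the core of the territory of the occluded artery, had a median of -0.29 over 18 genes, with 1 above 0. *Rxrg* was at -0.67, *Drd2* at -0.39, *Gpr6* at -0.39 and *Ppp1r1b* at 0.41. Cortical projection neuron markers had a median of -0.11 over 20, with *Neurod6* at -0.56 (limma adjusted p = 0.0456). Interneuron markers had a median of -0.14 over 14, with *Cort* at -0.60 and *Cck* at -0.37. limma called 2 interneuron markers lower, *Cort* and *Cck* (adjusted p of 0.0295 and 0.0412). Glutamate and GABA receptor genes had a median of -0.16 over 21, with *Grm3* at -0.64 and *Grin2b* at -0.54, both called lower by limma. Voltage-gated channel genes had a median of -0.14 over 19, with *Cacna1g* at -0.45, and respiratory chain genes of 0.01 over 19. limma called none of the striatal, channel and respiratory chain genes.

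**Figure D4:**
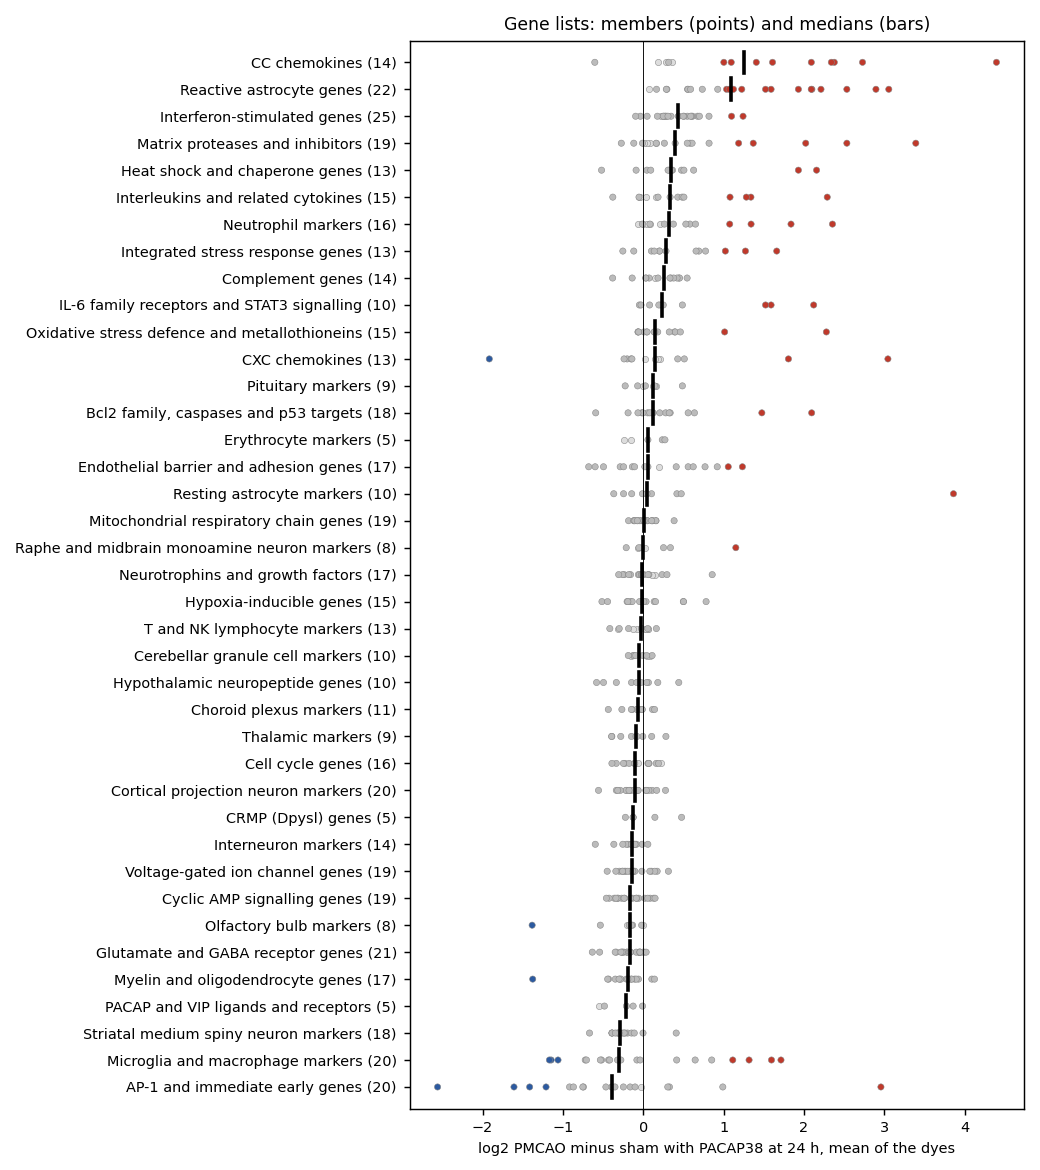
Mean log2 difference PMCAO minus sham with PACAP38 at 24 h (horizontal axis) for the members of 39 gene lists, with called genes in red and blue, other counted genes in gray, uncounted ones in light gray and the list median as a bar (number of genes on the array in parentheses). Bars of CC chemokines and reactive astrocyte genes lie beyond 1, and that of immediate early genes is the lowest, at -0.39.

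In the ligand and receptor genes of PACAP itself, no call was made. *Adcyap1*, the precursor of PACAP, was at 11.87 and 10.34 in sham and 11.34 and 9.90 in PMCAO, a difference of -0.48 that limma called lower over both treatments (adjusted p = 0.0326). *Vip* was at -0.21, *Adcyap1r1* at -0.01 and *Vipr1* at -0.13, and *Vipr2* was not counted. In the Cy3 pair alone *Adcyap1r1* was at 0.08 and *Vipr1* at 0.003. Of 19 cyclic AMP signalling genes none was called, with a median of -0.16, and limma called 3 lower: *Crem* at -0.46, *Prkar2b* at -0.42 and *Adcy8* at -0.36. The collapsin response mediator genes, which guide axons, lay between -0.22 (*Crmp1*) and 0.48 (*Dpysl4*), with *Dpysl2* at -0.13, *Dpysl3* at 0.14 and *Dpysl5* at -0.13.

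Growth factor genes had no call among 15 counted, a median of -0.02 over 17 and 1 limma call, *Igfbp3* at 0.86. Of the other genes the study named, *Igf1* was at -0.31, *Nf1* at -0.33, *Pitpnc1* at -0.33, *Epha3* at -0.18 and *Crtam* at 0.06. *Gabra6* was not counted. Cell cycle genes had no call among 11 counted, a median of -0.10 over 16 and 1 lower call by limma, *Ccnb2* at -0.39.

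Markers of other cells and regions were checked on the same channels. T and NK cell markers had no call in 6 counted, with a median of -0.02 over 13, and *Cd3d*, *Cd3g*, *Cd4* and *Cd8a* were not counted. Erythrocyte markers were at a median of 0.06 over 5, choroid plexus markers at -0.07 over 11, cerebellar granule cell markers at -0.05 over 10, thalamic markers at -0.09 over 9, hypothalamic peptides at -0.06 over 10 and pituitary markers at 0.12 over 9. None of these lists had a call at 2-fold. Monoamine neuron markers had a median of 0.002 over 8 and 1 call, *Ddc*, at 1.15. Olfactory bulb markers had a median of -0.16 over 8, none above 0, and their summed level was 12.34 and 11.30 in sham and 12.09 and 11.01 in PMCAO. *Omp*, which defines mature olfactory sensory neurons, was not well above background on any of the 4 arrays. Apart from *S100a5*, the counted olfactory genes ranged from *Cdhr1* at -0.54 to *Th* at -0.02. Their part in the *S100a5* value was not tested.

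Set beside the saline channels of the same arrays, the genes called higher with PACAP38 mostly went the same way with saline and by more. With saline, 367 of 15342 genes (2.39%) were higher and 40 (0.261%) lower by the same rule. Of the genes higher with PACAP38, 141 were also higher with saline, which is 88.1% of the PACAP38 list and 38.4% of the saline list. Of the lower genes 17 were shared, 56.7% of one list and 42.5% of the other. The genes higher with PACAP38 had a median difference of 1.33 with PACAP38 and 1.99 with saline, and 118 of the 160 were larger with saline. The lower genes went the other way, with medians of -1.28 with PACAP38 and -1.09 with saline, and 9 of the 30 were larger in size with saline. Both lists were chosen by their size with PACAP38, a choice that by itself favors smaller sizes with saline. Its part was not tested. Since each treatment was 1 pool of mice per surgery, none of these gaps could be tested against the spread between pools.

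Among 438 genes called in either treatment, 203 had a smaller signed difference with PACAP38 by 1.5-fold or more in both dyes and 7 had a larger one. These genes were chosen by the differences then compared, and more were called higher with saline (367) than with PACAP38 (160). Such a choice by itself favors smaller values with PACAP38, and its part was not tested. Over all counted genes, 3539 of 15122 had the smaller signed difference with PACAP38 in both dyes, at any size. The widest gap was in *S100a5*. With saline it was at 7.63 and 6.60 in sham and 10.96 and 9.35 in PMCAO, a difference of 3.04 against -1.38 with PACAP38. Other olfactory bulb markers were also higher in the saline PMCAO pool, *Tbx21* by 1.76, *Doc2g* by 1.37 and *Cdhr1* by 0.79, against -0.13, -0.18 and -0.54 with PACAP38. Their part in the gap was not tested. Bpifb9a, 5430402E10Rik and 5430401F13Rik gave 2.80, 2.60 and 3.87 with saline and 0.48, 0.12 and 0.30 with PACAP38, where the first 2 were too dim to be counted and the last was not above background in sham, so that these gaps have no exact size.

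Myeloid and platelet genes were among the other wide gaps. *S100a9* was higher by 5.90 with saline and 2.35 with PACAP38, *S100a8* by 5.03 and 1.84, and *Retnlg* by 4.25 and 1.34. *Cxcl1* was called higher in both, but with PACAP38 only as a bound, so its gap has no exact size. *Ppbp*, a platelet chemokine, differed by 2.04 with saline and -0.24 with PACAP38, and *Cd14* by 3.83 and 1.60. All 11 counted neutrophil markers, all 21 reactive astrocyte genes and all 15 hypoxia-inducible genes had the smaller signed difference with PACAP38, as did 18 of 19 immediate early genes. Over all counted genes it was 6165 of 15122. In *Egr2*, sham levels were 12.56 and 10.95 with PACAP38 and 12.10 and 10.50 with saline, and PMCAO levels were 9.88 and 8.50 with PACAP38 and 11.31 and 9.82 with saline.

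The 7 genes in the other direction included *Ido1*, B230208B08Rik, *Adora2a*, *Fgf21*, *Rxrg* and *Aire*. *Adora2a*, an adenosine receptor of striatal neurons, was at -0.29 with PACAP38 and -1.18 with saline. *Ido1* and *Rxrg*, also on the striatal list, were at -0.11 and -0.67 with PACAP38 and -1.11 and -1.51 with saline. Of the 18 striatal genes, 17 had the higher signed difference with PACAP38, and the list medians were -0.29 and -0.69. This was not particular to the striatal list. The smaller signed difference was with PACAP38 in 2 of 20 cortical projection neuron markers and 3 of 20 glutamate and GABA receptor genes. It was so in 1 of 19 respiratory chain genes, but in 9 of 13 interneuron markers. *Aire*, above background on 1 sham array, was at 2.19 and 1.35. *Fgf21*, not above background in sham, was bounded with PACAP38 as given above and was too dim to be counted with saline, so its gap has no exact size.

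**Figure D5:**
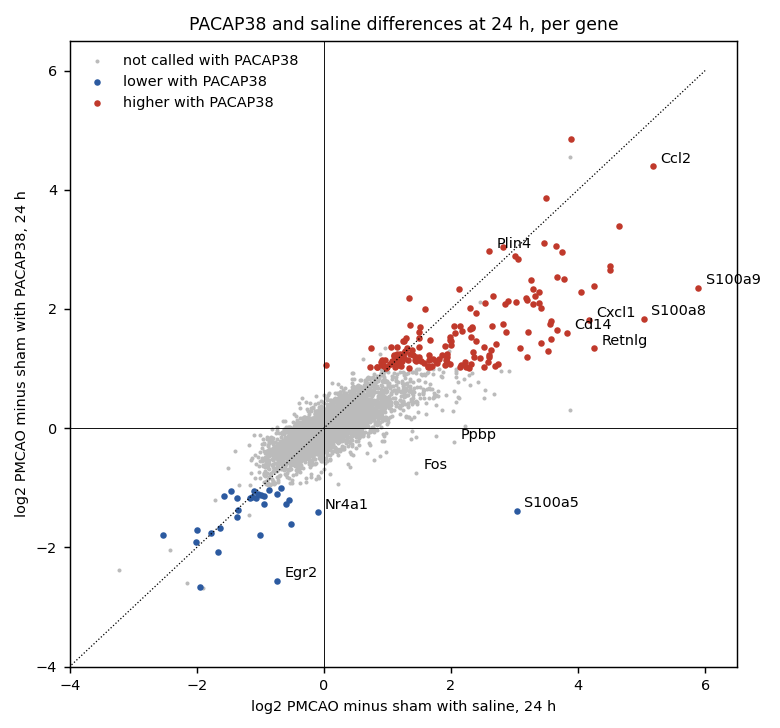
Mean log2 difference PMCAO minus sham at 24 h with saline (horizontal axis) and with PACAP38 (vertical axis) for genes counted in both, with genes called with PACAP38 in red (higher) and blue (lower) and the dotted line at equal differences. Most red points lie below the line, *S100a9* and *S100a8* farthest among them, and *S100a5* lies alone in the lower right.

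At 6 h with PACAP38, 149 of 12619 genes (1.18%) were higher and 353 (2.8%) lower. The Cy3 channels of 6 h were dim, with median raw signals of 70.1 (sham) and 67.4 (PMCAO) over backgrounds of 45 and 44. Outlier spots made up 9.23% and 2.96% of them, against 0.304% and 0.21% in Cy3 at 24 h. *Grm3*, called lower at 6 h, was at -0.05 in Cy5 and -2.30 in Cy3. Of the genes higher at 24 h, 28 were also higher at 6 h, 17.5% of the 24 h list and 18.8% of the 6 h list, and 3 of the lower genes were shared. Of the called genes, 148 of 160 and 22 of 30 were counted at 6 h. *Atf3* was at 3.24 at 6 h and 2.96 at 24 h, *Ccl4* at 3.07 and 2.73, *Timp1* at 2.04 and 2.53, and *S100a9* at 2.46 and 2.35. *Mmp3* and *Il11*, called at 24 h, were at 0.31 and 0.44 at 6 h, and *Gfap* at -0.39. Reactive astrocyte genes had a median of 0.31 at 6 h and 1.10 at 24 h, and the 13 immediate early genes with a value at 6 h had medians of 0.54 and -0.16. *Egr1*, *Nr4a1* and *Egr4* had a value at 6 h in the Cy5 pair alone, at 0.28, 0.55 and 0.99, and so had no mean. Arrays of 6 h were on another slide, so time and slide cannot be told apart.

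Promoters were searched for short motifs in the 250 bases before each start site (RefSeq, GRCm38.p6), on both strands. Of the 160 higher genes 126 had an entry, with 158 promoters. The AP-1 motif TGANTCA stood in 13.9% of these, in 4.72% of the promoters of counted genes and in 6.75% of all promoters. The NF-kB motif stood in 8.86%, 4.7% and 3.9%, the interferon motif GAAANNGAA in 10.1%, 6.07% and 7.13%, the heat shock motif GAANNTTC in 6.33%, 5.07% and 6.69%, the metal response motif TGCGCNC in 7.59%, 20.3% and 12.5% and the cyclic AMP response element TGACGTCA in 1.27%, 2.43% and 1.55%. Of the lower genes 23 had an entry, with 30 promoters, and AP-1 stood in 6.67%. A match is a string of letters and not a bound site.

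Sequences are given for 5 genes called higher, chosen after their values were seen to show AP-1, NF-kB, interferon and heat shock matches (capitals mark every motif found, 5′ to 3′ on the gene's strand). *Mmp3* lies at chr9:7445572-7445821 on the plus strand and *Il11* at chr7:4778142-4778391 on the minus strand, each with 1 AP-1 match. *Cxcl10* at chr5:92348890-92349139 (minus) holds an interferon match, NF-kB matches and an AP-1 match. *Cxcl1* at chr5:90890995-90891244 (plus) holds overlapping NF-kB matches, and *Hspa1a* at chr17:34972157-34972406 (minus) a heat shock match.
Mmp3: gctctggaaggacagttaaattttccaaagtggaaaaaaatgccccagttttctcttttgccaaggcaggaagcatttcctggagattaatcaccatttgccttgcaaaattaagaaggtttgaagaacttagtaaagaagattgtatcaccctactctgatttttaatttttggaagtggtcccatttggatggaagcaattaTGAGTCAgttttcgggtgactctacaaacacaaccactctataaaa
Il11: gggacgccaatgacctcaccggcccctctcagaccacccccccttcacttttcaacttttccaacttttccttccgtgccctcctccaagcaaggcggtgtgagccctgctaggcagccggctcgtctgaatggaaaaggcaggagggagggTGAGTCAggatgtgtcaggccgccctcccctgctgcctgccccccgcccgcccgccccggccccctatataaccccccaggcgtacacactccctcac
Cxcl10: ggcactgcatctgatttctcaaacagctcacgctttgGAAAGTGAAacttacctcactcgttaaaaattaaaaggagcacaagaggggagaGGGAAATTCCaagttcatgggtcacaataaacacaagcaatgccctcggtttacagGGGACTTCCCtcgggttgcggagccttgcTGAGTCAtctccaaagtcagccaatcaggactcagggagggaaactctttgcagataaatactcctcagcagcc
Cxcl1: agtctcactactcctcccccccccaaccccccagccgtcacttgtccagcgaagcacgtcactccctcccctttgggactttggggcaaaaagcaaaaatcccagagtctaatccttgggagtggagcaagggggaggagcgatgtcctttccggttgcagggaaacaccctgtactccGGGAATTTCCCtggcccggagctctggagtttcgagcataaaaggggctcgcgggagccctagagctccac
Hspa1a: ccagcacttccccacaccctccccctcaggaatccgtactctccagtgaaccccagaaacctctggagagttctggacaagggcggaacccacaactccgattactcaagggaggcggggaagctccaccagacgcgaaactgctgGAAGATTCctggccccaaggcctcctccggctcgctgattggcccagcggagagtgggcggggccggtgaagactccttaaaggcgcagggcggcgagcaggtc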

How the data were processed

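Dual-colour Agilent whole-genome arrays had been hybridized with PACAP38 and saline RNA of mice of the same surgery. The authors deposited scanner output with signal intensities and flags per spot, made per the file headers with Agilent Feature Extraction 9.5.3.1 at 24 h and 9.5.1.1 at 6 h. The 3 second copies of files held identical values and were dropped. The deposited table of the authors' processed values was not used.

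Mean signals were background-corrected with normexp (offset 50) and quantile-normalized between the arrays of a slide within a dye (limma 3.58.1, R 4.3.3). Control and outlier spots were left out and spots of a probe averaged. A probe counted where it was well above background on both arrays of at least 1 group. Calls needed a mean difference of 2-fold with both dyes in one direction. Where the lower group was not well above background on either array, a bound was taken from the dimmest signal called well above background on each array. limma (lmFit and eBayes) was run on 4 differences, with Benjamini-Hochberg adjustment at 0.05, after a test on simulated data. The labels number the arrays as Pooled 1 and 2, whereas the methods describe one RNA labeled with either dye.

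Of 41174 probes, 22944 were named by accession and 9772 by symbol or synonym (RefSeq), 1254 kept the file's name and 7204 had none. Named genes were the 15 largest and 15 smallest differences and the 8 largest bounds among higher genes, as no lower gene had a bound. Also named were the 4 largest members of each of 39 lists and all PACAP, VIP and CRMP genes. The genes the study named and up to 10 of the widest gaps to saline each way were added. Some genes that met these rules are not reported here. Further list members were named after their values were seen. Members and lists were chosen with earlier results of these data known. Alternatives covered background correction, normalization, outlier spots, filter, threshold, dye pairs and the variance model. The number of arrays limits the precision.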

Additional observations from a re-analysis of the deposited data

Results flagged for a closer look

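In 3 genes both dye pairs of one comparison went one way by more than 1.5-fold and both pairs of another went the opposite way. *S100a5* differed by -1.38 with PACAP38 and by 3.04 with saline at 24 h. *Fos* differed by -0.75 with PACAP38 at 24 h, by 1.45 with saline at 24 h and by 1.52 with PACAP38 at 6 h. *Gpr182* differed by 0.91 with PACAP38 at 24 h and by -0.72 at 6 h. With 1 pool a group none of these opposite directions was tested.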

How the results depend on the processing

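Counts of called probes depended on background correction and threshold more than on normalization, where all 3 normalizations gave 210 to 219 higher and 36 to 40 lower probes against 215 and 38. With a normexp offset of 1, 357 were higher and 72 lower, and with the scanner software's processed signals 484 and 163. At 1.5-fold either way they were 572 and 240, above 1.5-fold or below 0.75-fold 572 and 768, and at 2-fold in each dye 125 and 20. Either dye pair alone gave 224 to 316 higher and 27 to 80 lower, of which the Cy5 pair gave 80. Over the PACAP38 and saline pools, limma called 473 higher and 250 lower with processed signals, and 2123 and 3438 with median scaling. Leaving out 1 of the 4 differences in turn gave 407 to 1438 higher and 122 to 1522 lower. Leaving out probes whose dyes differed by more than 1, chosen after seeing the data, gave 571 and 432. The cause of these shifts was not tested. Of the 39 lists, 19 had a median above 0 over their genes on the array, and 18 to 19 under the alternatives run. No called gene among the named ones changed sign under the alternatives run on them, whereas medians of 6 lists with no or few calls did under some: lymphocyte, endothelial, PACAP and VIP (-0.21, and 0.003 in the Cy3 pair), growth factor, respiratory chain and monoamine neuron genes. A kept sign is not a kept size. With processed signals 109 of 188 named genes and 21 of 39 list medians were marked as moved. With a normexp offset of 1 it was 78 and 13, and with median scaling 27 and 7. No paired analysis was possible because the arrays numbered 1 and 2 of a group held 1 pool in either dye, so that a number marks a dye and no second pool exists. Limits are 1 pool of 3 mice per group, dim probes that only give bounds, probes whose value was set by 1 pair of arrays, and a test that averages both treatments.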
